A study of Homo sapiens with 6 samples.

Results

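The replication-dependent histone genes were examined in RNA-sequencing counts from HEK293, an established line of embryonic kidney origin. Members were taken by symbol, as protein-coding genes named in the HIST1 to HIST4 series or by the newer H1-, H2AC, H2BC, H3C and H4C names. The table held 57773 gene rows, and 38 of these were found to be members, with 6 coding for H1, 9 for H2A, 11 for H2B, 7 for H3 and 5 for H4. By location, 24 belonged to the HIST1 cluster on chromosome 6, 9 to HIST2 and 3 to HIST3 on chromosome 1, and 1 to HIST4 on chromosome 12. H2BC12L on chromosome 21 belonged to none of these clusters. H3-4 (HIST3H3) and H3-7 (HIST2H3PS2) entered through their older symbols. A further 31 annotated members (8 H2A, 6 H2B, 8 H3 and 9 H4 genes) could not be matched to a row by identifier and were not analysed here. Their counts may stand under some of the 2235 identifiers that had no match to a symbol, so the sums, shares and rankings below cover only the 38.

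The study asked whether the zinc finger proteins ZNF146 and ZNF507 affect expression of other genes. Each of 3 groups held 2 libraries, described as biological duplicates. Cells received PX459 plasmids, which carry Cas9 and a puromycin resistance gene, and 36 h of puromycin followed by outgrowth to 2 weeks was common to all groups. The EV group received the vector without a guide, sgZNF146 received 4 guides against ZNF146 and sgZNF507 received 4 guides against ZNF507. The cells were transiently transfected populations and not clones, so alleles with and without damage were mixed, and no group lacked Cas9. RNA was total RNA from which ribosomal RNA had been depleted, without selection for poly(A) tails.

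Histones package DNA, with H2A, H2B, H3 and H4 forming the core of the nucleosome and H1 binding the linker DNA. The replication-dependent genes are switched on as DNA is copied in S phase, so that new chromatin can be built. Their mRNAs are unusual in lacking introns and a poly(A) tail: they end just after a short stem-loop, which is bound by SLBP and which directs 3′ cleavage, translation and rapid decay when replication stops.

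That stem-loop was searched for in each gene within 200 bases after the stop codon as a 6-base stem beginning GG, a 4-base loop and a perfectly paired second arm. It was found in 36 of 38 members, and it is shown here because it defines the class and because its letters separate 1 histone type from the others. The sequences below are from GRCh37, written 5′ to 3′ on the gene's own strand with the 16 bases of stem and loop in capitals. They were chosen as the member of highest level per kb in its type that held the element.
H1-4 (chr6:26157323-26157338, plus strand): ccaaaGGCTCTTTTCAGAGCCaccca
H2AC20 (chr1:149858941-149858956, plus strand): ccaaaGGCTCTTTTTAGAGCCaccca
H2BC12 (chr6:27114145-27114160, minus strand): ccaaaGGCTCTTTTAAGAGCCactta
H3C13 (chr1:149784783-149784798, minus strand): ctaaaGGCTCTTTTCAGAGCCactgc
HIST1H4B (chr6:26027129-26027144, minus strand): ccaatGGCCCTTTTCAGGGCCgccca
The form of H1-4 was shared by 22 members and that of H2BC12 by 8. The letters of the H2AC20 element occurred in that gene alone among the 38. All 5 H4 genes carried the GGCCC stem of HIST1H4B, and no other type did. H2AC11 and H2BC12L had no match within the window searched, which says only that these letters were not there.

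Promoter sequences (250 bases before to 50 after the start, RefSeq, GRCh38.p14) were matched for 35 of 38 members. H3C12, H4C3 and H2BC12L had no entry. Of these 35, 31 (88.6%) held CCAAT, 25 (71.4%) held TATAAA and 13 (37.1%) held the octamer ATTTGCAT, each counted on either strand. Among all 35116 promoters in the same table the shares were 34.6%, 11.5% and 1.77%. The octamer, which the transcription factor POU2F1 binds, was in 6 of 10 H2B and 6 of 9 H2A promoters, in 1 of 6 H3 promoters and in 0 of 6 H1 and 0 of 4 H4 promoters. CCAAT was in every matched H1, H2A, H2B and H3 promoter and in 0 of 4 H4 promoters. H2A and H2B genes that lie head to head share bases of these windows and were each counted. The window given for H3C4, the H3 promoter with the octamer, is the same as that given for H2AC7. In the GRCh37 annotation used for the counts, these genes start apart, H3C4 at 26197514 and H2AC7 at 26199521. The shared window lies at the H2AC7 start, so the motifs counted for H3C4 are not those next to its annotated start. The promoters of H2BC13, H2BC5, H2BC12 and H2BC21 are shown as the 150 bases before the start, with these motifs in capitals, because their genes moved unlike one another in the comparison of replicate numbers below.
H2BC13 (chr6:27807930-27808079, minus strand): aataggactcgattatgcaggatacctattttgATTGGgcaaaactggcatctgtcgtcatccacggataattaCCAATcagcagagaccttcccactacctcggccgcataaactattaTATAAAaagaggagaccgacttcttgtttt
H2BC5 (chr6:26157971-26158120, plus strand): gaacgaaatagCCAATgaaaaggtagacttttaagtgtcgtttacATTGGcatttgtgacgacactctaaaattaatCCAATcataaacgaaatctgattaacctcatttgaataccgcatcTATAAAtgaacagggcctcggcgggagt
H2BC12 (chr6:27146859-27147008, minus strand): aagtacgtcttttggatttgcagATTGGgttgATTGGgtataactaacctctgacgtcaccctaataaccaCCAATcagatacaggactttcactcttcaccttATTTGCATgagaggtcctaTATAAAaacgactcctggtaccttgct
H2BC21 (chr1:149886683-149886832, minus strand): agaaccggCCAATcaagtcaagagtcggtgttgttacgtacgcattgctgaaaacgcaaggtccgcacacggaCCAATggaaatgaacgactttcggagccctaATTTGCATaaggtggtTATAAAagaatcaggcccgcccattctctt
In these windows H2BC12 and H2BC21 held the octamer just before the TATA motif, whereas H2BC13 and H2BC5 held TATAAA and CCAAT without the octamer. Of the other tested H2B genes, H2BC4 (log2 difference of replicate 2 against replicate 1 of -0.14), H2BC11 (-0.34) and H2BC18 (-0.36) also hold it, and H2BC15 (-0.38) and H2BC26 (-0.33) do not, and no relation to the motif was tested.

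Library totals ranged from 22724439 to 28524025 counts. ZNF507 was at 71.9 and 75.4 CPM (counts scaled to a common library size after TMM adjustment) in EV and at 47.2 and 48.7 CPM in sgZNF507, a log2 fold change of -0.62 (SE 0.07, edgeR adjusted p = 0.00195). ZNF146 mRNA was at 114.8 and 105.3 CPM in EV and at 99.1 and 102.5 CPM in sgZNF146, a change of -0.13 that did not pass the test (edgeR adjusted p = 1). In sgZNF507 it was at 88.3 and 101.3 CPM, a larger change of -0.21 that was not called either, so its mRNA level does not mark sgZNF146. The paper describes both proteins as essentially undetectable by western blot in the targeted cells, with insertions or deletions at the guide sites. An mRNA level need not follow the loss of a protein after small insertions or deletions. Of the HEK293 line markers, NEFM (mean 71.9 CPM) and LIN28B (92.2 CPM) were well expressed and PAX2 was low (6.14 CPM). Leukocyte markers summed to at most 0.476 CPM and endothelial markers to at most 0.207 CPM. Fibroblast markers summed to 66.4 to 82.6 CPM, most of it COL1A1 (mean 64.2 CPM), with COL3A1 at a mean of 7.32 CPM.

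The histone genes took 0.482% to 0.671% of all counts. H2B genes held 39.8% of the summed histone CPM, H1 genes 26.9%, H2A genes 18.4%, H4 genes 12.5% and H3 genes 2.37%, shares which leave out the unmatched members. HIST1 genes held 75.8%, HIST2 genes 17.6%, HIST3 genes 5.59% and HIST4 0.952%. In bulk RNA, fewer cells in S phase and less histone mRNA per cell cannot be told apart.

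Per kb of annotated exon, the linker histones H1-4 and H1-2 were at the top, while H1-3 stood below several H2A, H2B and H4 genes. H1-4 (chromosome 6, 26156557 to 26157343) had a mean of 1063 CPM per kb, H1-2 had 848 and H1-3 had 119. H1-5, another somatic linker histone, had 0 to 3 counts in each library although all of its 50-base windows are unique in the genome. H1-1 had 0 to 8 counts.

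Among H2A genes the order per kb was H2AC11 (583 CPM per kb), H2AC20 (430) and H2AC13 (272). Among H2B genes it was H2BC12 (796), H2BC5 (408) and H2BC11 (292). Gene models that run over 100 bases past the stem-loop can lower a value per kb, and they were present for H2BC4, H2BC5, H2BC11, H2BC15, H2BC18, H2BC21, H2BC26, H2AC1, H2AC6, H2AC25, HIST2H2AA3, H3-7, H4C8 and H4C16.

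H3 was the type with the lowest levels here, led by H3C13 (152 CPM per kb), H3C12 (72.6) and H3C4 (5.33). For H4, HIST1H4B (581) and H4C3 (562) were close to each other, and their ranges over the 6 libraries overlapped. H4C8 followed at 91.4 CPM per kb, and the HIST4 gene H4C16 was at 22.4.

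**Figure D1:**
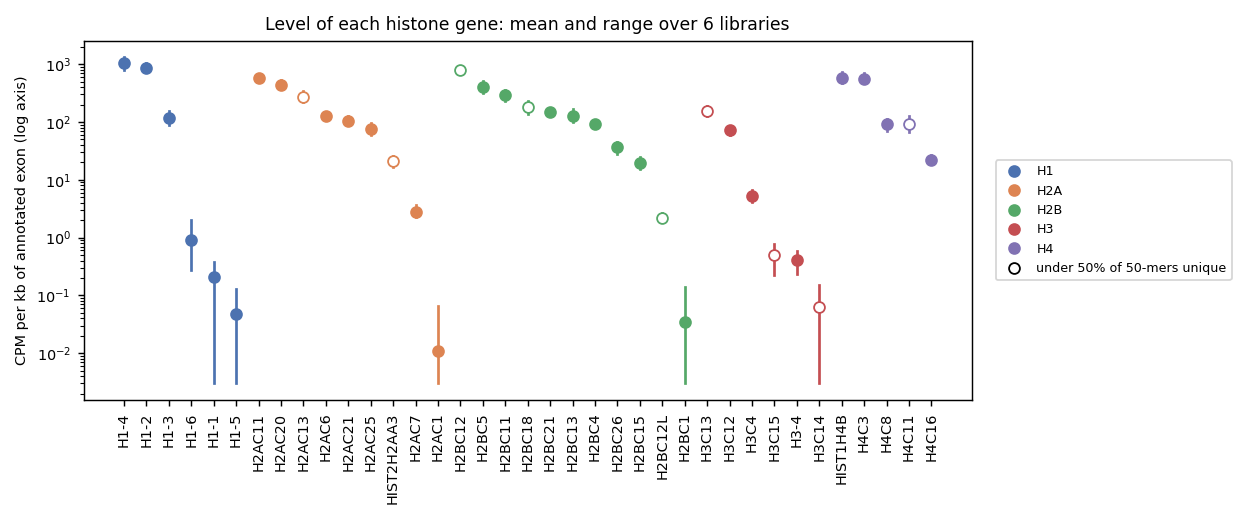
Mean level of each histone gene in CPM per kb of annotated exon (log axis), by type, with a line from the lowest to the highest of 6 libraries. Lines that reach the bottom include libraries at 0, open points mark genes with under 50% of 50-base windows unique, and H3-7 (0 counts everywhere) is not drawn. H1-4 is highest at 1063 and the testis gene H2AC1 lowest of those drawn.

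The testis histones were at or near 0. H2AC1 had 2 counts in 1 library and 0 in the other 5, H2BC1 had 0 to 2 counts and H3-4, the testis H3 of the HIST3 cluster, had 3 to 7. H1-6, the testis linker histone, was the exception that passed the filter on low counts, with 5 to 33 counts. The other genes of the HIST3 cluster were well expressed, H2AC25 at a mean of 141 CPM and H2BC26 at 181 CPM.

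Some members share nearly all of their sequence with a copy, so that reads cannot be assigned to 1 gene with certainty. Of all 50-base windows (the read length), 0% were unique in the genome for H3C14, H3C15 and HIST2H2AA3, 7.9% for H4C11, 21.4% for H3C13, 21.5% for H3-7, 29.4% for H2BC18, 36.5% for H2AC13, 42.8% for H2BC12 and 49.0% for H2BC12L. H3C14 had 0 to 2 counts and H3C15 had 3 to 10, but HIST2H2AA3, which also has no unique window, had 465 to 642. The levels of these 10 genes are uncertain. Exons also overlap a gene with a symbol for H3C12 (H2AC17) and H2BC26 (MIR4666A) on the same strand. On the opposite strand they do so for H2AC21 (BOLA1), H2BC18 (FCGR1A) and H2BC4 (HFE). Annotated genes without a symbol overlap exons of H3C4, H2AC7, H2AC6 and H3-7 on the same strand, and the gene is the same for H3C4 and H2AC7. Such genes overlap H4C8, HIST2H2AA3, H2BC4 and H3-7 on the opposite strand. How reads in shared exons were counted is not given in the sources used here. The library kit kept strand, but whether counting used it is not given in the sources used here. H1-4, H1-2, H1-3 and H4C3 were unique in 100% of windows. The filter on low counts was passed by 30 of 38 members, and the 8 that failed it were H3C15, H3-4, H1-1, H3C14, H1-5, H2BC1, H2AC1 and H3-7.

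Of 6 head-to-head H2A and H2B pairs, with starts 215 to 248 bases apart, 5 were expressed from both genes. The sixth was the testis pair H2AC1 and H2BC1. The ratio of H2B to H2A CPM was 1.24 to 1.38 for H2BC26 and H2AC25 over the 6 libraries and 0.395 to 0.494 for H2BC13 and H2AC13. These are ratios of counts and not per length. The pair H2BC21 and H2AC20 varied most, from 1.22 to 1.93, and its ratio was higher in the library numbered 2 than in the library numbered 1 of every group. The ratio of H2BC11 to H2AC11 went the other way, from 1.11 to 1.20 in the libraries numbered 1 and from 0.931 to 1.01 in those numbered 2.

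Disruption of ZNF146 or ZNF507 was compared with EV first. Summed over the 38 members, EV was at 5895.4 and 5624.7 CPM, sgZNF146 at 6911.8 and 5111.4 CPM and sgZNF507 at 6349.7 and 4740.6 CPM. In each disrupted group 1 library lay above both EV libraries and the other below them. The means were 5760 ± 191 CPM in EV, 6012 ± 1270 in sgZNF146 and 5545 ± 1140 in sgZNF507 (SD, n = 2). The differences from EV were far smaller than the spread between libraries within either disrupted group, but not smaller than the SD of EV, whose libraries lay closer together.

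**Figure D2:**
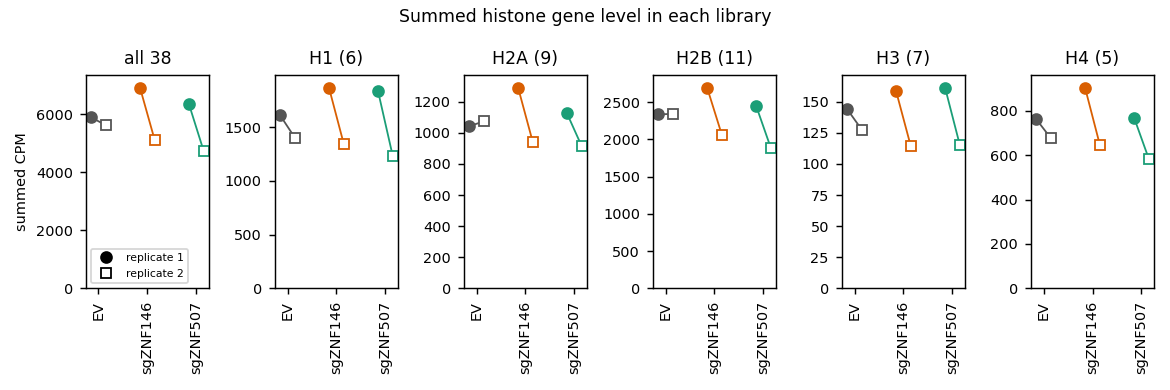
Summed CPM of the histone genes in each library, for all 38 members and by type (number of genes in parentheses), with filled circles for replicate 1 and open squares for replicate 2. EV libraries lie between the high and the low library of each disrupted group for the sum of all members.

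In sgZNF146 against EV, 0 of 30 tested members passed an adjusted p of 0.05 (edgeR, background 0%), and 0 had an unadjusted p under 0.05 (background 2.43%). DESeq2 also called 0. The median log2 fold change of the members was 0.06 against 0.00 over all 22010 genes tested, with 23 members above 0 (background 49.5%). Members share cells and libraries and are not replicates of each other, so counts of members by direction, here and below, were not tested. For H1-4, EV was at 884 and 787.8 CPM and sgZNF146 at 1043 and 708.9 CPM, a log2 fold change of 0.07 (95% interval -0.32 to 0.45, edgeR adjusted p = 1). The groups overlapped. The largest differences upward were H2AC21 at 0.22 (-0.00 to 0.45), H4C11 at 0.20 and H2AC20 at 0.16. Downward they were H1-6 at -0.49 (-1.97 to 1.00), H2BC12L at -0.29 and H2AC7 at -0.28, which are the lowest of the tested genes in counts. None of these 6 passed the test. Libraries of the groups did not overlap for H2AC21, which was higher (background 14%), or for H2BC21, H2AC7 and H2BC12L, which were lower (background 14.6%).

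In sgZNF507 against EV, again 0 of 30 members were called (edgeR, background 0.182%), with 0 at an unadjusted p under 0.05 (background 3.39%) and 0 called by DESeq2. The median was -0.06, with 23 members below 0 (background 51%). All 10 tested H2B and all 5 H4 genes were below 0, with medians of -0.10 and -0.11. H2BC26, an H2B gene of the HIST3 cluster, was at 194 and 190.4 CPM in EV and at 186.3 and 139.4 CPM in sgZNF507. Its libraries did not overlap, as was also true of H2AC13 and H2BC12L (3 members lower, background 15.3%). The log2 fold change of H2BC26 was -0.24 (95% interval -0.57 to 0.09, edgeR adjusted p = 1), and with the replicate number as a block it was -0.26 (edgeR adjusted p = 0.0379, DESeq2 adjusted p = 1 with the same block). Without sgZNF507 replicate 2 the difference was -0.03 and without sgZNF507 replicate 1 it was -0.46. The other large differences were H2BC12L at -0.30 and H3C4 at -0.25 downward, and H1-6 at 0.47 (-0.85 to 1.80), H1-2 at 0.15 and H2AC7 at 0.08 upward. H1-2 was at 619.9 and 540.6 CPM in EV and at 754 and 535.1 CPM in sgZNF507, and the interval of its difference was -0.14 to 0.45.

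The disrupted groups were also compared with each other. In sgZNF507 against sgZNF146, 0 of 30 members were called (edgeR, background 0.173%) and 1 had an unadjusted p under 0.05 (background 4.03%). DESeq2 called 0. That member was H4C11, which had 50.2 and 31.1 CPM in sgZNF146 and 35.2 and 25.9 CPM in sgZNF507, a log2 fold change of -0.42 (95% interval -0.82 to -0.01, edgeR adjusted p = 1). The groups overlapped, and only 7.9% of this gene's windows are unique. The median of the members was -0.14, with 25 of 30 below 0 (background 51.2%). With the replicate number as a block, H4C11 (-0.41, edgeR adjusted p = 0.0263) and H2BC18 (-0.25, edgeR adjusted p = 0.0293) were called, and without the block H2BC18 was at -0.25 (edgeR adjusted p = 1). DESeq2 with the block called neither. Without sgZNF146 replicate 1, H4C11 was at -0.02 and H2BC18 at -0.02, and without sgZNF507 replicate 2 they were at -0.19 and 0.005. H2AC21 was at -0.22, and H1-6 (0.96, -0.46 to 2.37), H2AC7 (0.35) and H3C13 (0.03) had the largest positive values. H2AC7 was the 1 member whose libraries did not overlap, and it was higher (background 15.5%).

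**Figure D3:**
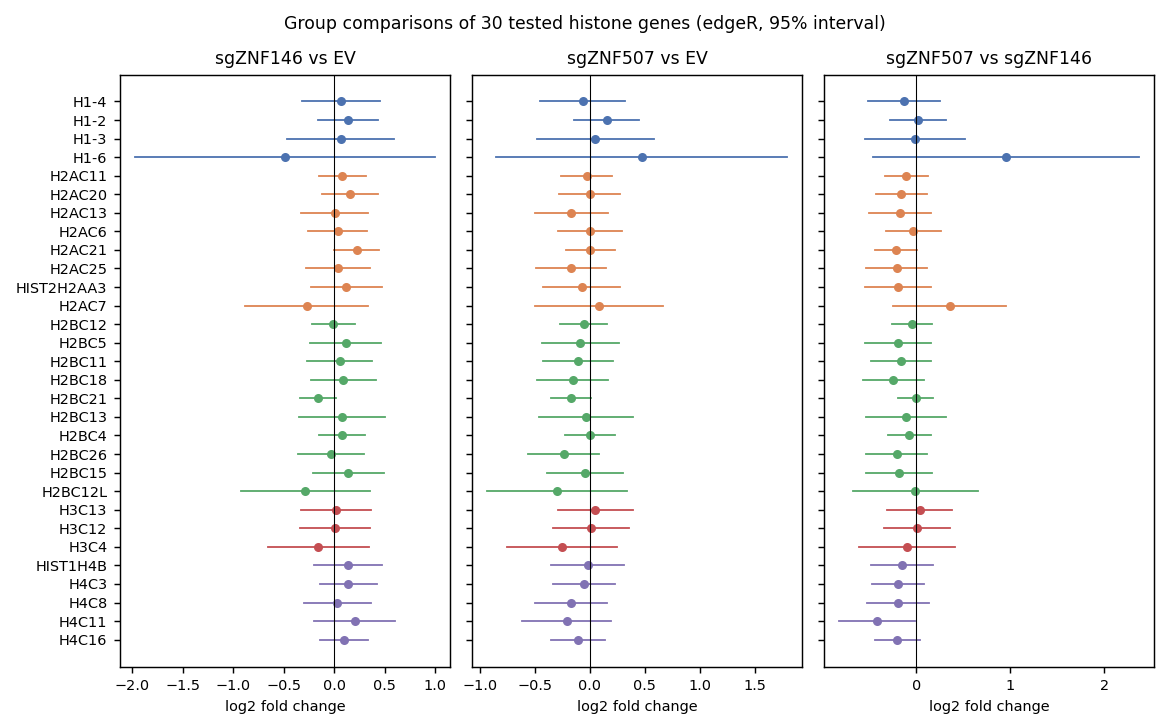
Log2 fold change of each of 30 tested histone genes in the 3 group comparisons (horizontal axis, edgeR), with lines for the approximate 95% interval and colours for histone type. No member passed an adjusted p of 0.05, and the intervals span 0 for all members except H4C11 in sgZNF507 against sgZNF146.

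More members were called between replicate numbers than in any group comparison. The tests were unlike, because the group fits held no replicate term, so that difference added to their error. Each group comparison also rested on fewer libraries. The libraries numbered 2 were lower than those numbered 1 for 23 of 30 tested members at an adjusted p of 0.05 in a fit with group and replicate number (edgeR), and 0 were higher, also at an unadjusted p under 0.05 and by DESeq2. Over all 22010 genes, 7.25% were called, 3.44% as lower and 3.81% as higher. The labels do not say what the number marks, and the test takes it as shared between groups. DESeq2 called 8 of 30, all lower. The members' median was -0.32 against 0.00 over all genes, with 27 of 30 below 0 (background 49.7%), and 19 were lower in replicate 2 in all 3 groups (background 19.3%). After the log2 differences of all genes were regressed on GC content and transcript length, the members' median was -0.29.

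All 4 tested H1 genes fell. H1-3 was at 105.7 CPM in EV replicate 1 and 74.1 in replicate 2, at 117.1 and 70.4 in sgZNF146 and at 118 and 68.4 in sgZNF507. Every library numbered 2 was below every library numbered 1, and the log2 difference was -0.68 (SE 0.05, edgeR adjusted p = 5.62e-15). H1-4 fell by 0.45 (edgeR adjusted p = 4.46e-08), with 632.2 to 787.8 CPM in the libraries numbered 2 and 884 to 1043 CPM in those numbered 1. H1-2 fell by 0.34. H1-6 had the largest fall, 1.47 (SE 0.36, edgeR adjusted p = 0.00669), but on 5 to 13 counts against 17 to 33, and without either sgZNF507 library it did not pass.

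All 5 H4 genes fell, from -0.22 for H4C16 to -0.40 for HIST1H4B (SE 0.04, edgeR adjusted p = 4.58e-09). HIST1H4B was at 220.8, 256.9 and 230.8 CPM in the libraries numbered 1 and at 182.6, 185.8 and 167.3 CPM in those numbered 2, which did not overlap. H4C8 fell by 0.39, H4C3 by 0.31 and H4C11 by 0.31. Of the 3 tested H3 genes, H3C13 and H3C12 each fell by 0.39. H3C4 was at 0.23 (95% interval -0.11 to 0.57) on 47 to 93 counts.

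Of 10 H2B genes 7 fell. H2BC13 fell by 0.48 (SE 0.06, edgeR adjusted p = 2.01e-07), from 60.2, 74.8 and 66.7 CPM to 54.0, 45.3 and 45.1 CPM. H2BC5 (-0.39), H2BC15 (-0.38), H2BC18 (-0.36), H2BC11 (-0.34) and H2BC26 (-0.33) followed, and H2BC12 was called at -0.16 (edgeR adjusted p = 0.0447). H2BC21, whose promoter is shown above, was at 0.00 (95% interval -0.10 to 0.10), with 327.3, 322.8 and 336.7 CPM in the libraries numbered 1 and 384.3, 313.4 and 295.4 CPM in those numbered 2. It was higher in replicate 2 in EV and lower in the other groups, as were H2BC12, H2BC4, H2AC11, H2AC21, H2AC25, HIST2H2AA3 and H4C11. H2BC4 at -0.14 (edgeR adjusted p = 0.129) and H2BC12L at 0.14, the latter on 22 to 34 counts, were not called either.

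Of 8 H2A genes 5 fell, which were H2AC13 (-0.32), H2AC6 (-0.30), H2AC20 (-0.29), H2AC25 (-0.28) and HIST2H2AA3 (-0.28). H2AC11 at -0.12 (-0.23 to -0.01), H2AC21 at -0.10 and H2AC7 at -0.18 were not called. Within head-to-head pairs the members could differ, as H2BC21 at 0.00 did from H2AC20 at -0.29 and H2BC11 at -0.34 from H2AC11 at -0.12, differences which were not tested. By cluster, 16 of 20 tested HIST1 genes, 4 of 6 HIST2 genes, both tested HIST3 genes and H4C16 fell.

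The calls of H2BC12, HIST2H2AA3, H2AC25, H2AC13, H4C11 and H4C16 were lost without either sgZNF146 library, which left 17 of 30, and those of H2BC12, HIST2H2AA3 and H1-6 without either sgZNF507 library, which left 20. Of genes whose models run over 100 bases past the stem-loop, 10 of 12 were called, with a median of -0.32, and of those with shorter models 13 of 16 were called, with a median of -0.33. The difference between these sets was not tested.

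**Figure D4:**
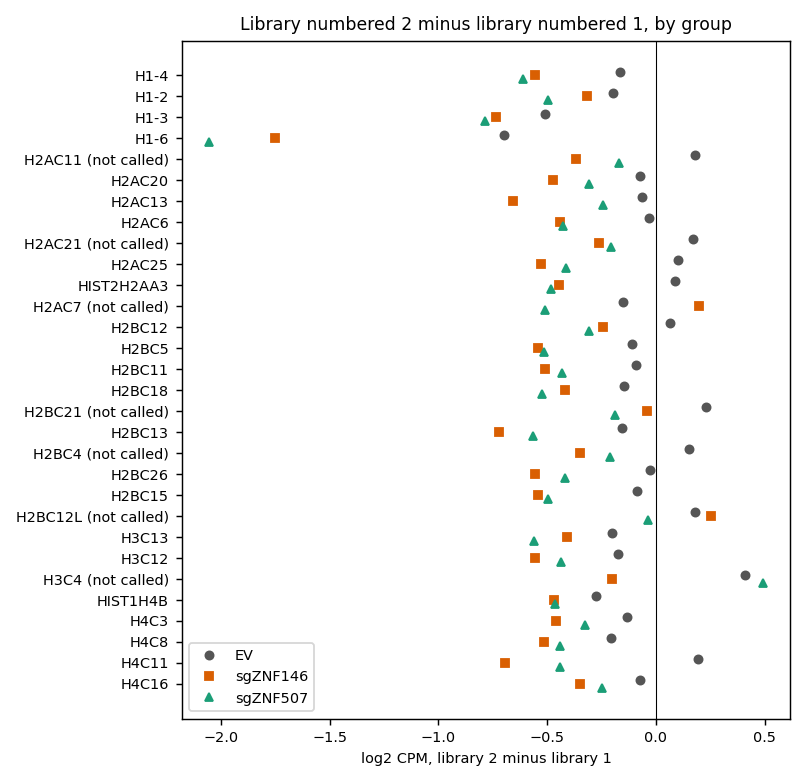
Difference in log2 CPM between the library numbered 2 and the library numbered 1 within each group, for 30 tested histone genes. The EV points have a median of -0.08, those of sgZNF146 a median of -0.46 and those of sgZNF507 a median of -0.43.

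The difference between replicate numbers was unequal between groups. In EV, 20 of 30 members were lower in replicate 2, with a median of -0.08. In sgZNF146 28 were lower, with a median of -0.46, and in sgZNF507 29 were lower, with a median of -0.43. Over the 19390 genes with at least 10 counts in every library the median was within 0.01 of 0 in each group, and 50.1%, 49.4% and 49.0% of genes were lower.

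Because of this pattern the difference itself was tested, a comparison chosen after the values were seen. The EV side rests on 1 library of each number, and the error on how far the disrupted groups agree. No other group was set apart in the same way. In a fit with a separate replicate term for EV, which leaves 1 residual degree of freedom, 12 of 30 members had a higher value of replicate 2 relative to replicate 1 in EV than in the disrupted groups, taken with 1 common replicate term, at an adjusted p of 0.05 (edgeR, background 0.195%), and 26 had an unadjusted p under 0.05 (background 5.77%). All 30 estimates were positive (background 49.6%), with a median of 0.36. Of the 12, H4C11, H2AC11, H2BC4 and H2AC25 were higher in replicate 2 than in replicate 1 in EV, and the others were lower there by less than in either disrupted group. The estimates were largest among called members for H4C11 (0.77), H2AC25 (0.57), H2BC13 (0.49) and H2BC26 (0.46), all on the log2 scale. DESeq2 called 0 of 30 and 0 of all genes, with 18 members and 51 of all genes at an unadjusted p under 0.05. Among all 43 genes that edgeR called, 9 could not be matched to a symbol. Whether histone genes are among these 9 was not determined, so the 12 called members may leave some out. Other called genes, named after their values were seen, were of both signs. Positive were the mitochondrial ribosomal RNAs MT-RNR1 (2.07) and MT-RNR2 (1.80), the heat shock gene HSPA1B (0.53), the 7SK RNA gene RN7SK (0.51), the telomerase RNA gene TERC (0.42), the ribosomal protein gene RPS28 (0.39) and UBE2S (0.33). Negative were the small nucleolar RNAs SNORA53 (-1.78), SNORA73B (-0.65) and SNORD17 (-0.57). The part of these genes in the histone result was not tested.

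Genes that act on histone genes and their mRNAs were read from the same fits. In the 3 group comparisons 0 of them were called, over 10 genes of histone transcription, 11 of 3′ processing, 9 of translation and decay, 12 chaperones and 9 replication-independent histones. At an unadjusted p under 0.05 (edgeR) there were 0 in sgZNF146 against EV (background 2.43%). In sgZNF507 against EV there were 2 (background 3.39%), the transcription factor YY1 at -0.21 and the cleavage factor gene CPSF2 at -0.17, and against sgZNF146 there was 1 (background 4.03%), YY1 at -0.21.

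By replicate number, the calls in these lists are few and stand against 7.25% of all genes called, 3.44% as lower and 3.81% as higher. SLBP fell by 0.14 (edgeR adjusted p = 0.0419), with 95.5 to 104.1 CPM in the libraries numbered 1 and 86.4 to 94.0 CPM in those numbered 2. It was the 1 called gene of 11 in 3′ processing. NPAT, the coactivator of histone genes at S phase entry, was at -0.13 (edgeR adjusted p = 0.144), and YY1 fell by 0.17, the 1 called of 10 in transcription. All 9 genes of translation and decay missed the threshold. The genes of highest CPM in these lists, CREBBP (0.03), SRRT (-0.06), UPF1 (0.03) and SSRP1 (-0.04), were not called. Of 12 chaperones, CHAF1A, the large subunit of chromatin assembly factor 1, fell by 0.15 and DAXX, a chaperone of H3.3, fell by 0.16.

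Of the 9 replication-independent histones reported here, 1 was called. H1-10, a linker histone, fell by 0.33 (edgeR adjusted p = 1.25e-06), from 217.8, 235.8 and 258.3 CPM in the libraries numbered 1 to 190.2, 190.4 and 184.4 CPM in those numbered 2, which did not overlap. The core variants H2AX (0.02), H3-3A (0.03) and H2AZ1 (-0.03) were not called, nor was MACROH2A1 (-0.04), the variant of highest CPM.

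Of 21 other S-phase genes tested, such as the MCM helicase genes, 1 was called (background 7.25%), the licensing factor CDT1 at -0.13, and the median was -0.05. However, 16 of the 21 were below 0 (background 49.7%), and 12 were lower in replicate 2 in all 3 groups (background 19.3%). MCM7, the highest in CPM, was at -0.04. Of 20 genes of G2 and mitosis, 3 were called as higher in replicate 2 (background 3.81%), UBE2C (0.21), CENPE (0.19) and TOP2A (0.17), and the median was 0.04. MKI67, the highest in CPM, was at 0.05.

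**Figure D5:**
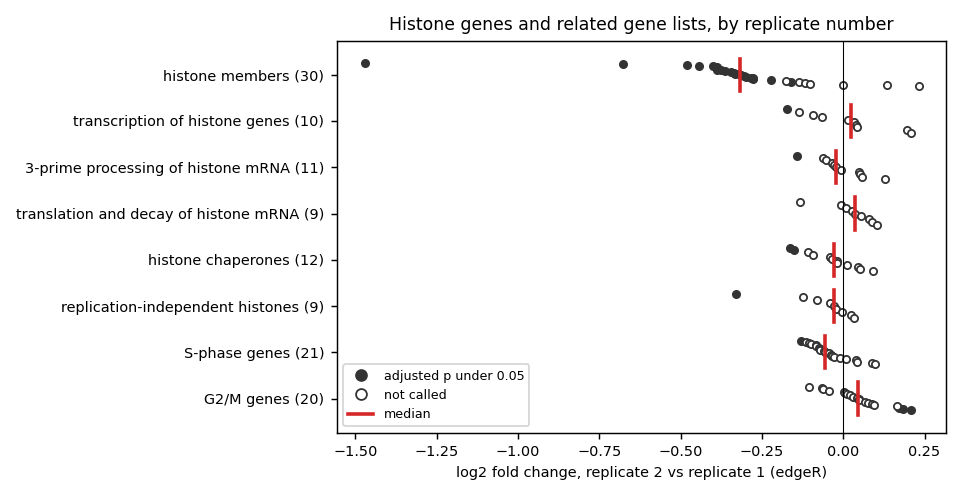
Log2 fold change of replicate 2 against replicate 1 (edgeR, horizontal axis) for the tested histone genes and 7 lists of related genes (number tested in parentheses). Filled points passed an adjusted p of 0.05 and red bars are medians, -0.32 for the histone genes and between -0.05 and 0.04 for the lists.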

How the data were processed

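The authors clipped the paired 50-base reads, removed ribosomal reads, mapped the rest to hg19 (GRCh37) with TopHat2 and counted them per Ensembl gene with featureCounts. Deposited were raw read counts, as whole numbers, for 6 libraries with totals of 22724439 to 28524025. How reads with several matches were counted is not given in the sources used here. Symbols came from the GENCODE annotation of GRCh37 and matched 96.1% of 57773 identifiers. The test was edgeR 4.0.16 in R 4.3.3 (filterByExpr on the groups, 22010 genes, TMM, quasi-likelihood test, Benjamini-Hochberg adjustment over all genes, threshold 0.05). Group comparisons used all 6 libraries without a replicate term, and replicate numbers were compared with the group as a term. Standard errors and intervals derive from the F statistic and are approximate. With 2 libraries a group an exact test cannot go below p = 0.333. The steps were tested on simulated data. Intervals and counts cover no error beyond that between libraries, and PCR duplicates were not told apart.

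Histone genes and lists were chosen with earlier results of these data known. A gene of the related lists is not reported here. Named are, per type, the 3 members of highest CPM per kb, in each comparison those called and the 3 largest in each direction, the testis, HIST3 and HIST4 genes, SLBP, NPAT, the highest gene of each list, called list genes and the targeted genes. Alternatives were other normalizations, other filters, DESeq2 1.42.0, the 4 libraries compared, a replicate block, each library left out and, added later, a loess with a span of 0.5 on GC content (members' median 55.9% against 48.2%) and transcript length. Figures were drawn with matplotlib 3.10.9.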

Additional observations from a re-analysis of the deposited data

Results flagged for a closer look

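The difference in summed histone level between a disrupted group and EV had opposite signs in the libraries numbered 1 and those numbered 2. For sgZNF146 minus EV it was 0.23 (log2) within replicate 1 and -0.14 within replicate 2. For sgZNF507 minus EV it was 0.11 within replicate 1 and -0.25 within replicate 2. Each value rests on 1 library a group, and these differences of sums were not tested. By member, 23 of 30 were above EV in replicate 1 and below it in replicate 2 for sgZNF146, and 24 of 30 for sgZNF507. In sgZNF507 against sgZNF146 the sum was lower in both, by -0.12 and -0.11.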

How the results depend on the processing

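The count of members called stayed at 0 in all 3 group comparisons under other normalizations, at least 10 counts in every library, DESeq2, the 4 libraries compared and each library left out. It was 1 in sgZNF507 against sgZNF146 without a filter (H4C11, -0.41), and with the replicate block in edgeR it was 1 in sgZNF507 against EV and 2 in sgZNF507 against sgZNF146. The block in DESeq2 called 0. Whether the numbers pair the samples is not given: deviations of same-numbered libraries correlated at 0.191 to 0.242 over 22010 genes, and over 30 members at 0.495 to 0.788. Over all genes the block moved the calls from 0 to 33, from 40 to 121 and from 38 to 196. The block changed no other member's call. The cause of these changes was not tested.

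Leaving out 1 library moved the members' median from -0.18 (without sgZNF146 replicate 1) to 0.28 (without sgZNF146 replicate 2) in sgZNF146 against EV, from -0.28 (without sgZNF507 replicate 1) to 0.11 (without sgZNF507 replicate 2) in sgZNF507 against EV, and from -0.37 to 0.10 between the disrupted groups. In each comparison only 6 single members were followed, the 3 with the largest differences in each direction, and sign changes of the other members are not listed. Of those followed, the members that changed sign with 1 library left out were, in sgZNF146 against EV, H4C11 (-0.186 to 0.506), H2AC20 (-0.101 to 0.372) and H1-6 (-1.599 to 0.129). In sgZNF507 against EV they were H1-6 (-0.818 to 1.233), H1-2 (-0.118 to 0.39) and H2AC7 (-0.181 to 0.339), and between the disrupted groups H3C13 (-0.269 to 0.303), H1-6 (-0.331 to 2.079) and H2BC18 (-0.532 to 0.005). None of these was called without the replicate block, and with it H2BC18 was called by edgeR between the disrupted groups.

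Between replicate numbers, DESeq2 called 8 members against 23 in edgeR, of 423 genes against 1596. The count was 17 to 26 with a library left out, and the median was -0.47 to -0.23. H2BC21, at 0.0005, was -0.003 with DESeq2, its size factors or at least 10 counts, -0.017 with the upper quartile and -0.123 to 0.098 with a library left out. Regressing on GC content and length moved the medians by at most 0.02. The difference between EV and the disrupted groups in replicate 2 minus replicate 1 was called for 12 members by edgeR and 0 by DESeq2. For members with few counts, such as H1-5 (0 to 3 a library), no difference could be tested at this depth.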
